A study of Mus musculus with 9 samples.

Results

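The genes described here encode the semaphorins of classes 3 to 7, the plexins and the neuropilins. They were taken by symbol, as every Sema, Plxn or Nrp gene of these classes named in the deposited counts. This gave 31 genes of 48397 symbols, namely 7 secreted class 3 semaphorins, 13 membrane-bound semaphorins of classes 4 to 7, 9 plexins and 2 neuropilins. All 31 had enough reads to be among the 16522 genes tested. The RNA was total RNA from dissected cardiac outflow tracts of C57BL/6J mouse embryos at embryonic day 12.5. Homozygous deletion embryos (HO, Nkx2-5delta-enh/delta-enh) lack an enhancer of Nkx2-5 that is active in the anterior second heart field, and wild-type embryos (WT, Nkx2-5+/+) were their littermates. There were 5 HO and 4 WT libraries, made with a SMART-Seq kit for low input. No Cre line is named, so the deletion is not known to be limited to a tissue. Nothing in the labels ties a library to a single embryo, and the p-values below therefore describe variation among libraries, some of which can be technical.

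Semaphorins are cues that guide migrating cells, axons and growing vessels. They bind plexins, whose cytoplasmic part turns off R-Ras and Rap GTPases and reshapes the cytoskeleton. Most class 3 semaphorins bind a neuropilin, which pairs with a plexin to form the signalling receptor, while membrane-bound semaphorins bind plexins directly. In the mouse outflow tract, Sema3c is made by outflow tract muscle and is needed for cardiac neural crest cells to divide the tract into aorta and pulmonary trunk. Plxna2, Plxnd1, Nrp1 and Nrp2 are its receptor components in neural crest and endothelial cells, and Nrp1 and Nrp2 are also co-receptors of vascular endothelial growth factors (VEGF).

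Sequence near the start sites of Sema3c and Nrp2 is shown because these were the members whose HO and WT values did not overlap. The start sites and bases are RefSeq's (GRCm38.p6, plus strand). Capitals mark matches to 3 cardiac factor cores searched on both strands: AAGTG (Nkx2-5), GATAA (GATA factors) and GGTGTG (T-box factors). The Sema3c stretch is chr5:17574723-17574752, which is exonic in the longer transcripts of the GENCODE annotation, and the Nrp2 stretch is chr1:62703067-62703284, just before the annotated gene.
Sema3c: cccggcgcccggcCACTTgccattcactcc
Nrp2: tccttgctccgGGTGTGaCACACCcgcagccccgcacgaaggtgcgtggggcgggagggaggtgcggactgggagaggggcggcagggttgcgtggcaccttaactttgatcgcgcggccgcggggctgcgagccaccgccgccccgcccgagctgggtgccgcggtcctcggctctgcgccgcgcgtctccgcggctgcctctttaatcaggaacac
The Sema3c window held 1 AAGTG match, on the minus strand at position -80 from the RefSeq start, and no GATAA or GGTGTG. The Nrp2 window held 2 GGTGTG matches in opposite orientation, at -239 and -232, and neither of the other cores. RefSeq windows of the same length were found for 26 of the 31 genes, some with several start sites (37 windows in all). AAGTG occurred in 37.8% of these windows and in 46.4% of 32851 windows over all genes, GATAA in 10.8% and 25.4%, and GGTGTG in 27.03% and 19.0%. These matches are descriptions of letters, not of bound sites.

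The 9 libraries held 27707435 to 49094225 reads in genes and 20606 to 22093 genes with a read, and the 31 genes took 0.122% to 0.167% of those reads. Nkx2-5 itself averaged 17.5 ± 4.64 CPM (reads scaled by library size) in HO and 36.3 ± 11.9 CPM in WT (SD, n = 5 and 4), with overlapping groups (log2 fold change -1.05, SE 0.26, edgeR adjusted p = 0.896). HO 1 to HO 5 had 16.5, 24.4, 17.8, 11.4 and 17.4 CPM. WT 1 to WT 4 had 18.8, 42.0, 45.0 and 39.5 CPM, so that of the WT libraries only WT 1 lay within the HO range. The deposited library names carry a number that the labels do not explain. It puts the libraries into 3 sets: set A with HO 1, HO 2, WT 1 and WT 2, set B with HO 3, HO 4, WT 3 and WT 4, and set C with HO 5 alone. HO 2 stood apart. Its 12 neuron markers summed to 3375 CPM, against at most 191 CPM in each other library, and its 6 Schwann cell markers to 181 CPM, against at most 54.7 CPM. In HO 2, 234 genes were over 4 times their level in every other library. Muscle markers were present throughout: none of 13 heart muscle or 8 smooth muscle genes was at 0 in any library. That does not show that the dissected pieces were alike.

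At the level of single genes, 2 members separated the groups: Sema3c, the secreted ligand of outflow tract septation, and Nrp2, a co-receptor, were lower in each HO library than in each WT library. Sema4a, a scarce membrane-bound semaphorin, was lower on average with overlapping groups. Nrp1, Plxna2 and Plxnd1, the other receptor components used by Sema3c, had log2 fold changes of -0.09 to 0.12. In the quasi-likelihood test of edgeR, with p adjusted over all genes tested by Benjamini and Hochberg's method, 0 of the 31 passed 0.05, as did 0 of 16522 genes (0%). At an unadjusted p under 0.05 there were 3 members, all lower in HO (9.68% of 31), against 870 genes overall (5.27%), of which 384 were higher (2.32%) and 486 lower in HO (2.94%). Groups did not overlap for 2 members (6.45%), both lower in HO, against 298 genes overall (1.8%), 161 of them lower in HO (0.974%). DESeq2 called 40 of 17757 genes (0.225%) and 0 members, the nearest being Sema3c at an adjusted p of 0.0537. The median log2 fold change was 0.01 over the members and 0.003 over all genes tested, and the median size of the change was 0.22 and 0.15. Of the members, 16 were above 0 and 15 below, and in 16 the change was smaller than its standard error. Without HO 2, 9 members were above 0 and 22 below, and 5 members (16.1%), Sema3c, Nrp2, Sema4a, Plxna4 and Sema6c, were at an unadjusted p under 0.05, against 868 of 16278 genes (5.33%). The median log2 fold change without HO 2 was -0.18 over the members and -0.002 over all genes tested. The share of all genes below 0 was not counted in that fit.

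**Figure D1:**
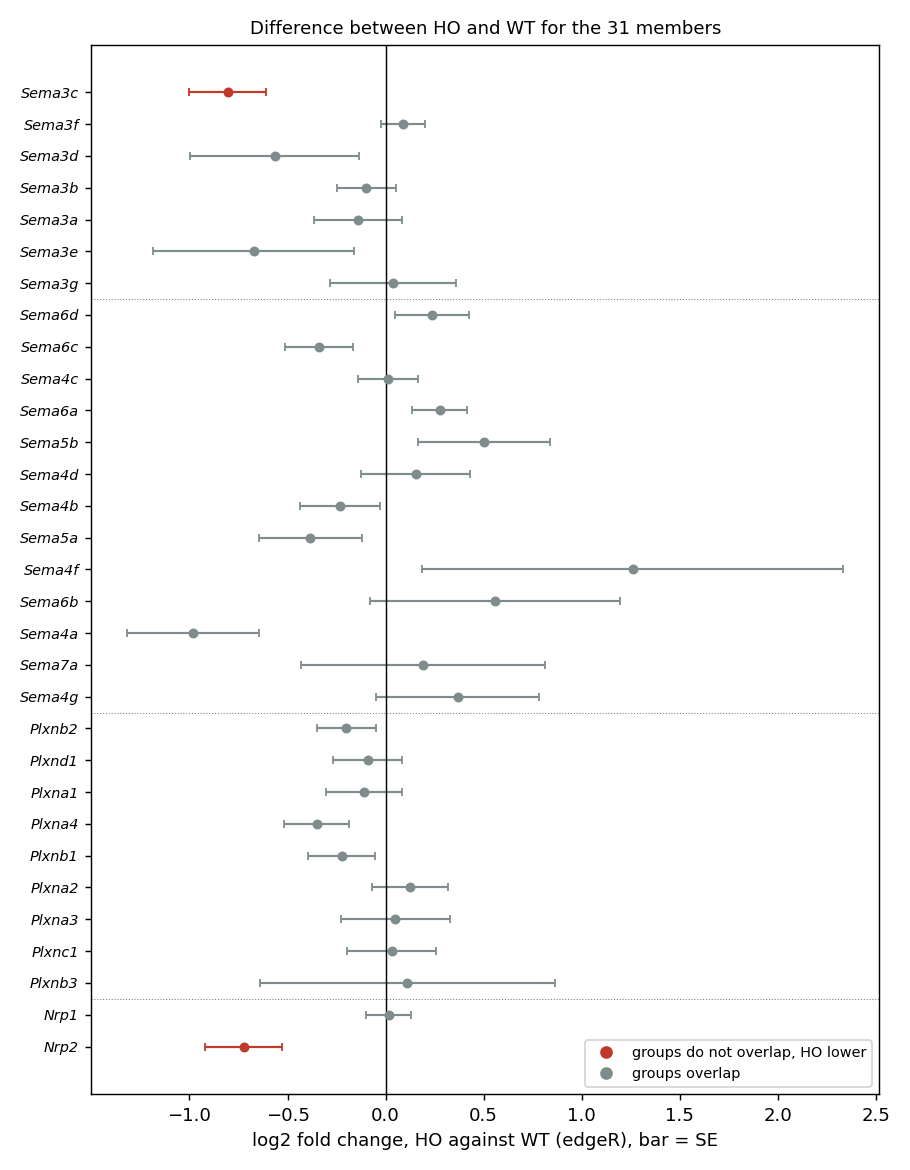
Log2 fold change of HO against WT for the 31 genes (x axis, edgeR; bars are the standard error), grouped from top to bottom into class 3 semaphorins, membrane-bound semaphorins, plexins and neuropilins. Red points, Sema3c at -0.81 and Nrp2 at -0.72, mark genes whose HO and WT libraries did not overlap; Sema4f has the widest bar, at 1.26 with a standard error of 1.07.

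Levels can be compared between genes after division by exon length (CPM per kb of the union of exons, mean of the 9 libraries). Plxnb2, a receptor of class 4 semaphorins, was the highest at 34.9 CPM per kb, followed by Nrp1 at 30.8 and Sema3c at 25.9, and the libraries' ranges of these 3 overlapped. Sema3f, a ligand that prefers Nrp2, followed at 12.01 and Sema3d at 8.92 CPM per kb. Plxnd1, Sema6d, Plxna1 and Plxna4 then lay at 6.51, 6.46, 6.30 and 5.51 CPM per kb, with overlapping ranges, and Sema3b at 5.35 and Nrp2 at 4.96. The lowest levels were those of Plxnb3, Sema7a and Sema4g, at 0.147, 0.131 and 0.114 CPM per kb. The order depends on the length used: with the longest transcript in place of the union of exons, Nrp1 came first at 82.7 CPM per kb, before Plxnb2 at 41.4 and Sema3c at 33.6.

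**Figure D2:**
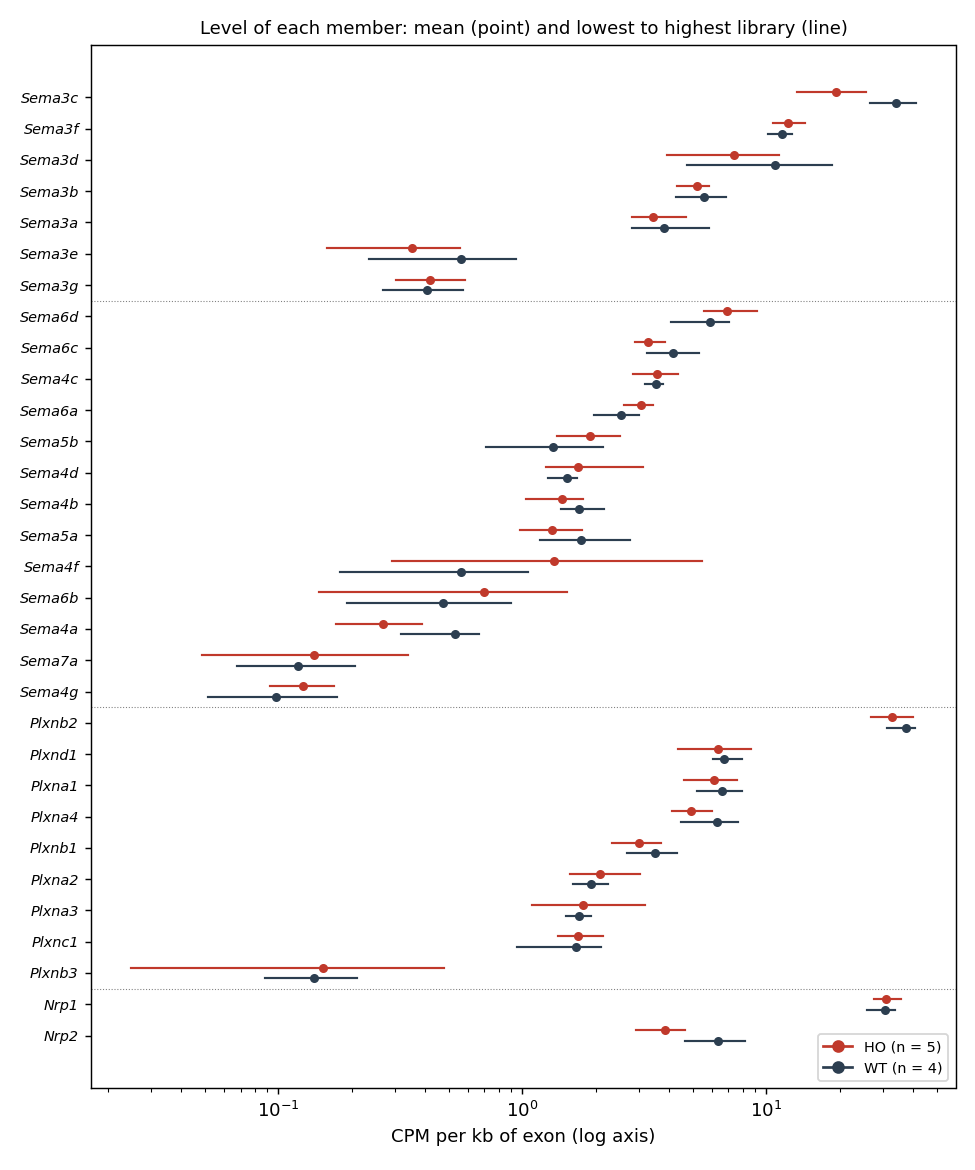
Level of each gene in CPM per kb of exon (x axis, log scale) in HO (red) and WT (dark); points are group means and lines run from the lowest to the highest library. Plxnb2, Nrp1 and Sema3c lie to the right, and the HO and WT lines are apart only for Sema3c and Nrp2.

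Among the secreted class 3 ligands, Sema3c had the highest level per length and was the only one whose groups did not overlap. Sema3c (chr5:17574281-17730268, plus strand, mm10) had 135, 95.5, 183, 134 and 145 CPM in HO 1 to HO 5, against 191, 190, 294 and 293 CPM in WT 1 to WT 4. The highest HO library, HO 3, lay just below the lowest WT library, WT 2. The groups averaged 139 ± 31.2 CPM in HO and 242 ± 59.5 CPM in WT (SD, n = 5 and 4), a log2 fold change of -0.81 (SE 0.20, 0.572 times the WT level). These values rest on 2738 to 12096 reads per library. The edgeR adjusted p was 0.896. An exact two-sided permutation test over the 126 labellings of the 9 libraries gave unadjusted p = 0.0159, where the smallest possible is 0.00794. The permutation test was run on all 31 members, and groups that do not overlap give it a low p by their order alone. The difference was present within each set, at -0.71 (SE 0.20) within set A and -0.89 (SE 0.13) within set B, and their difference had an edgeR adjusted p of 0.918. Leaving out any 1 library gave -0.92 to -0.69. In each set the HO libraries lay below the WT libraries.

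The other class 3 ligands overlapped between groups. Sema3d, a ligand known from venous and epicardial development, averaged 63.2 ± 24.4 CPM in HO and 93.5 ± 57.9 CPM in WT (log2 fold change -0.56, SE 0.43). Sema3e, which binds Plxnd1 without a neuropilin, ranged from 1.47 to 5.13 CPM in HO and from 2.18 to 8.74 CPM in WT (-0.67, SE 0.51). Within set B the Sema3e value had the opposite sign, at 0.30. Sema3a, a repellent of sympathetic and sensory axons, averaged 47.7 ± 10.4 CPM in HO and 52.6 ± 19.1 CPM in WT (-0.14, SE 0.22). Sema3f stood at 64.1 ± 7.42 CPM in HO and 60.3 ± 6.45 CPM in WT (0.09, SE 0.11), and Sema3b at 24.8 ± 3.11 CPM in HO and 26.5 ± 5.11 CPM in WT (-0.10, SE 0.15). Sema3g, made by arterial endothelium, averaged 1.90 ± 0.513 CPM in HO and 1.85 ± 0.565 CPM in WT. Thus 5 of the 7 ligands were below 0 and 2 above, with a median of -0.14. Sema3a, Sema3c, Sema3d and Sema3e lie on chromosome 5, and Sema3b and Sema3f are neighbours on chromosome 9.

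Summed per kb, class 3 ligands came to 48.5 ± 3.90 CPM per kb in HO (43.0 to 52.5) and 66.7 ± 4.11 in WT (61.2 to 70.5), with no overlap. Without Sema3c the sums overlapped, at 29.1 ± 2.99 in HO and 32.8 ± 7.56 in WT. Sema3c made up 39.8 ± 6.98% of the class 3 sum in HO and 50.7 ± 11.4% in WT, with overlapping values. The sum of the membrane-bound semaphorins was 25.8 ± 5.31 CPM per kb in HO and 24.2 ± 1.03 in WT, but HO 2 alone reached 35.1, and without it the HO mean was 23.4 ± 1.25. In bulk tissue, fewer cells of a type and less RNA per cell cannot be told apart. Smooth muscle markers were lower in HO as well. The 8 markers summed to 2543 to 3865 CPM in HO and 3886 to 4243 CPM in WT. At an unadjusted p under 0.05, 6 of the 8 were lower, against 2.94% of all genes tested. The median log2 fold change of the 8 was -0.34. Of the 6, Myh11 and Lmod1 stood highest in WT 1, at 34.5 and 7.31 CPM, against at most 7.87 and 3.40 CPM in each other library. The 13 heart muscle markers, Nkx2-5 among them, overlapped in sum, at 12537 to 17024 CPM in HO and 8847 to 21330 CPM in WT. The overlap came from WT 1, the lowest library at 8847 CPM. WT 2, WT 3 and WT 4 had 21330, 18267 and 18766 CPM, above each HO library. All 13 fold changes were below 0, with a median of -0.21. Relative to the mean log2 level of those markers without Nkx2-5, Sema3c stood at -2.07 ± 0.41 in HO and -1.43 ± 0.55 in WT, with overlapping libraries. The WT values ran from -2.20 in WT 2 to -0.89 in WT 1. The part of these tissues in the Sema3c difference was not tested.

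**Figure D3:**
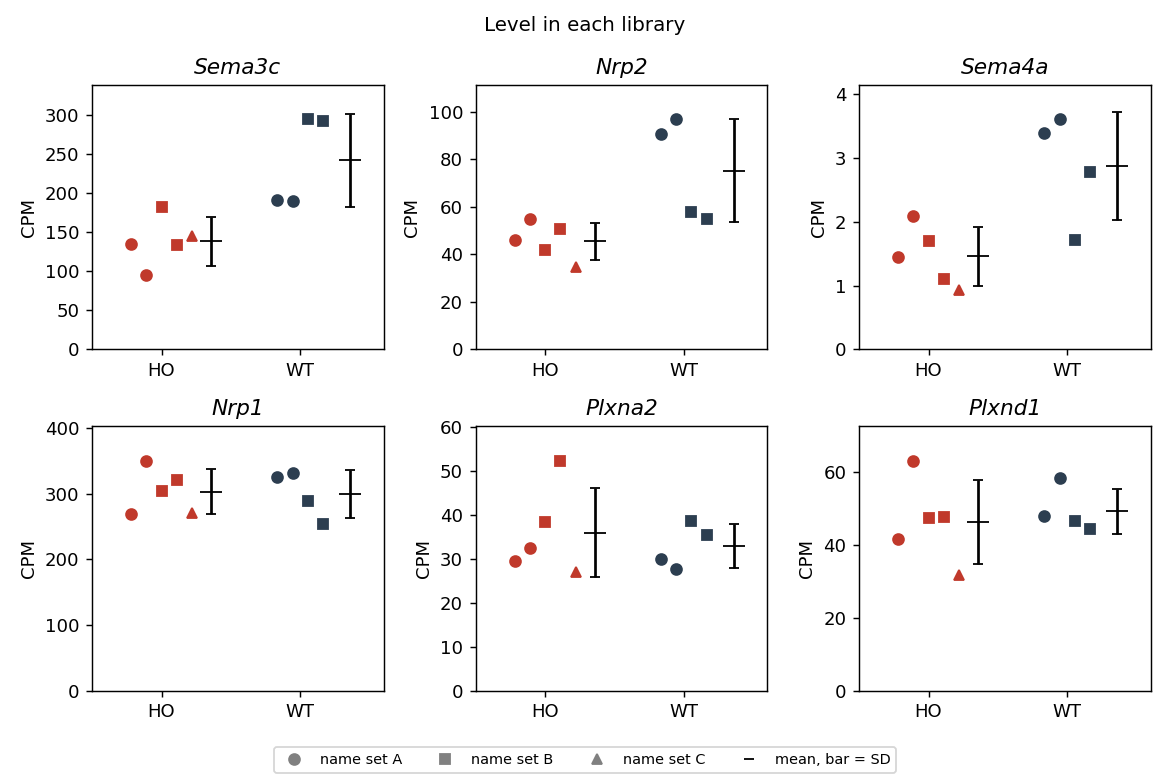
CPM (y axis, from 0) of 6 genes in each HO (red) and WT (dark) library; marker shape gives the set read from the number in the deposited library name, and the bar beside each group is the mean and SD. Sema3c lies lower in HO within sets A and B, while the WT libraries of Nrp2 split by set, at 58.0 and 55.1 CPM in B and 90.8 and 96.9 CPM in A.

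Of the 13 membrane-bound semaphorins, 9 had fold changes above 0 and 4 below, with a median of 0.19. Without HO 2, 6 were above 0 and 7 below, with a median of -0.18. Sema6d, the most abundant per length and a ligand of Plxna1 in the chick heart, had 58.5, 96.5, 66.3, 64.3 and 80.1 CPM in HO 1 to HO 5, against 42.8, 58.6, 72.3 and 74.5 CPM in WT 1 to WT 4. The groups overlapped (log2 fold change 0.24, SE 0.19), and the sign was positive within set A (0.63, SE 0.29) and negative within set B (-0.17, SE 0.08). The 2 values differed at an unadjusted p under 0.05 but at an edgeR adjusted p of 0.627. Sema4a (chr3:88435959-88461182, minus strand), a ligand known from immune cells and the retina, had 1.45, 2.09, 1.70, 1.10 and 0.930 CPM in HO 1 to HO 5, against 3.39, 3.60, 1.71 and 2.78 CPM in WT 1 to WT 4. Only HO 2 exceeded a WT library, WT 3. Its log2 fold change was -0.98 (SE 0.34, edgeR adjusted p = 0.896), and the unadjusted exact two-sided permutation p was 0.0317. It was at an unadjusted p under 0.05 in 16 of 19 other settings tried, while Sema3c and Nrp2 were in all 19.

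Sema4f, a semaphorin of neural tissue, had 1.55, 28.9, 1.70, 1.78 and 1.65 CPM in HO 1 to HO 5, against 5.59, 4.30, 1.02 and 0.944 CPM in WT 1 to WT 4. HO 2 was 5.17 times the next library. The log2 fold change was 1.26 (SE 1.07) over all libraries and -0.82 (SE 0.55) without HO 2, the library whose neuron and Schwann cell markers were high. Sema5b averaged 13.4 ± 3.64 CPM in HO and 9.45 ± 4.86 CPM in WT (0.50, SE 0.34), and Sema6a, a ligand of Plxna2 and Plxna4, 26.9 ± 3.02 CPM in HO and 22.2 ± 3.79 CPM in WT (0.28, SE 0.14). Sema6c averaged 19.5 ± 2.26 CPM in HO and 24.7 ± 6.32 CPM in WT (-0.34, SE 0.17), and Sema5a 24.8 ± 6.26 CPM in HO and 32.4 ± 13.5 CPM in WT (-0.38, SE 0.26). Sema4c, a ligand of Plxnb2, was 16.3 ± 2.94 CPM in HO and 16.2 ± 1.34 CPM in WT (0.01, SE 0.15). Sema4d, the ligand of Plxnb1, averaged 13.02 ± 6.19 CPM in HO and 11.7 ± 1.34 CPM in WT (0.15, SE 0.28), and Sema4b 8.20 ± 1.74 CPM in HO and 9.62 ± 1.79 CPM in WT (-0.23, SE 0.20). Sema6b, Sema7a (membrane-anchored by a lipid, and a ligand of Plxnc1) and Sema4g had fold changes of 0.56, 0.19 and 0.37 with standard errors of 0.64, 0.62 and 0.42. Their group means were under 3 CPM.

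Among the 9 plexins, 5 fold changes were below 0 and 4 above, and 6 were smaller than their standard error. Without HO 2, 1 was above 0, that of Plxna2, and 8 were below. Plxnb2 (chr15:89155549-89180788) had 231, 209, 308, 306 and 209 CPM in HO 1 to HO 5, against 242, 296, 316 and 307 CPM in WT 1 to WT 4. The groups overlapped, at 32.7 ± 6.52 CPM per kb in HO and 37.6 ± 4.31 in WT (log2 fold change -0.20, SE 0.15). Plxna2 (chr1:194618218-194816869) had 29.5, 32.5, 38.5, 52.3 and 26.9 CPM in HO 1 to HO 5, against 29.9, 27.7, 38.6 and 35.5 CPM in WT 1 to WT 4 (0.12, SE 0.19). HO 4 was the highest and HO 5 the lowest library. Plxnd1 (chr6:115954811-115995005), the plexin of vascular endothelium, had 41.5, 63.0, 47.2, 47.6 and 31.6 CPM in HO 1 to HO 5, against 47.8, 58.2, 46.4 and 44.2 CPM in WT 1 to WT 4 (-0.09, SE 0.18). The HO values spanned the whole WT range.

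Plxna4, a receptor of Sema3a and class 6 semaphorins, averaged 69.2 ± 11.1 CPM in HO and 88.4 ± 18.9 CPM in WT (log2 fold change -0.35, SE 0.16). Plxna1 averaged 55.1 ± 12.96 CPM in HO and 59.4 ± 13.1 CPM in WT (-0.11, SE 0.19), and Plxnb1 28.8 ± 5.61 CPM in HO and 33.6 ± 6.42 CPM in WT (-0.22, SE 0.17). These 3 and Sema4c overlap an annotated gene on the opposite strand. The strand setting of the counting is not given in the sources used here, so the overlap can alter their values in a direction not known. Nrp1, Sema4a and Plxnc1 overlap an annotated gene on their own strand, though the one in Plxnc1 was not among the counted symbols. The effect of these overlaps was not tested. Plxna3 was 14.0 ± 6.47 CPM in HO and 13.5 ± 1.69 CPM in WT (0.05, SE 0.28), and Plxnc1 14.2 ± 2.32 CPM in HO and 13.9 ± 4.38 CPM in WT (0.03, SE 0.23). Plxnb3 had 0.161, 3.11, 0.334, 0.784 and 0.558 CPM in HO 1 to HO 5, against 1.36, 0.571, 0.698 and 0.993 CPM in WT 1 to WT 4, and its fold change was 0.11 with HO 2 and -0.995 without it. Summed per kb, the plexins came to 58.8 ± 8.70 CPM per kb in HO and 66.1 ± 6.11 in WT.

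Of the 2 neuropilins, Nrp2 had groups that did not overlap and Nrp1 had groups that did. Nrp2 (chr1:62703285-62818695, plus strand), the neuropilin of veins, lymphatics and neural crest, had 45.9, 54.8, 41.7, 50.8 and 34.6 CPM in HO 1 to HO 5, against 90.8, 96.9, 58.0 and 55.1 CPM in WT 1 to WT 4. Each HO library was below each WT library, but HO 2 and WT 4 lay close together. The averages were 45.5 ± 7.88 CPM in HO and 75.2 ± 21.7 CPM in WT (SD, n = 5 and 4), a log2 fold change of -0.72 (SE 0.20, 0.606 times the WT level). The edgeR adjusted p was 0.896. The unadjusted exact two-sided permutation p was 0.00794, the smallest the 126 labellings can give, and a low p follows from groups that do not overlap. Within set A the log2 fold change was -0.88 (SE 0.17), and within set B it was -0.29 (SE 0.12). Their difference, 0.60 (SE 0.20), had an edgeR adjusted p of 0.533. Leaving out any 1 library gave -0.84 to -0.58. The 10 endothelial markers summed to 850 to 1035 CPM in HO and 801 to 942 CPM in WT, and the 4 lymphatic markers to 88.8 to 110.9 CPM in HO and 91.1 to 138.9 CPM in WT. The 9 epicardial markers summed to 513 to 916 CPM in HO, against 1269 and 1292 CPM in WT 1 and WT 2 and 830 and 979.8 CPM in WT 3 and WT 4; 8 of the 9 were below 0, with a median of -0.55. The 9 neural crest and mesenchyme markers summed to 1124 to 1352 CPM in HO and 566 to 1266 CPM in WT. Of the 8 tested, 5 were above 0 and 3 below, with a median of 0.29. At an unadjusted p under 0.05, 2 of them were higher in HO and 0 lower, against 2.32% and 2.94% of all genes tested. The part of these tissues in the Nrp2 difference was not tested.

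Nrp1 (chr8:128358604-128503363, plus strand), the neuropilin of arteries and of Sema3a, had 269.7, 350, 304, 321 and 270.2 CPM in HO 1 to HO 5, against 325, 331, 288 and 253 CPM in WT 1 to WT 4. The groups overlapped, at 303 ± 34.5 CPM in HO and 299.7 ± 36.2 CPM in WT (log2 fold change 0.02, SE 0.12). The ratio of Nrp1 to Nrp2 per kb was 8.16 ± 0.958 in HO (7.11 to 9.46) and 5.02 ± 0.920 in WT (4.14 to 6.02), with no overlap. The ratio of Sema3c to its receptor Plxna2 per kb was 9.73 ± 2.95 in HO (6.17 to 12.99) and 17.5 ± 1.97 in WT (15.3 to 19.8), also apart. The ratio of Sema3c to Nrp1 was 0.638 ± 0.173 in HO and 1.14 ± 0.409 in WT, with overlapping libraries. No test was made of these ratios, which combine genes already described.

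Levels of several members moved with the set. In a comparison of set B with set A, with genotype as a term and chosen after the data were seen, edgeR called 4 members higher in set B (Plxna1, Plxna2, Sema3c and Sema5b), where 905 of 16522 genes were higher (5.48%), and 3 lower (Sema3d, Sema5a and Sema6b), where 689 genes were lower (4.17%). Sema3d averaged 43.1 CPM in set B and 114 CPM in set A (log2 fold change -1.36, SE 0.18, adjusted p = 0.0072). Sema3c averaged 226 CPM in set B and 153 CPM in set A (0.54, SE 0.13, adjusted p = 0.0367). Plxna1 averaged 69.4 CPM in set B and 45.3 CPM in set A (0.62, adjusted p = 0.0051), and Sema5b 15.4 CPM in set B and 7.89 CPM in set A (1.02, adjusted p = 0.0121). What the sets stand for was not tested.

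Within each of sets A and B, HO libraries lay below WT libraries without overlap for 5 members, Nrp2, Plxna1, Sema3c, Sema4a and Sema6c (16.1% of 31), and above them for 2, Sema5b and Sema6a (6.45%). Over all genes tested, 600 were lower in this way (3.63%) and 600 higher (3.63%). With the replicate number as a block, 6 of the 31 members (19.4%) were at an unadjusted p under 0.05, against 799 of 16522 genes (4.84%). These were Sema3c, Nrp2 and Sema4a, as without the block, with Sema3d (log2 fold change -0.45, SE 0.14), Sema5b (0.65, SE 0.19) and Sema6a (0.32, SE 0.10). The Sema3d value was -0.71 in set A and -0.14 in set B, and -0.17 over all libraries without WT 1. With the set as a term there were 7 (22.6%), the same 6 and Plxna4, against 1013 genes (6.13%). No member passed the adjusted threshold in either. Sema3c was nearest in both, at -0.83 (SE 0.12, edgeR adjusted p = 0.514) with the block and -0.81 (SE 0.13, adjusted p = 0.267) with the set. A test of whether the genotype difference itself differed between sets B and A used 8 libraries. It called 2 of 17754 genes (0.0113%), neither a member, and 1396 genes (7.86%) were at an unadjusted p under 0.05, against 2 members, Nrp2 and Sema6d.

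**Figure D4:**
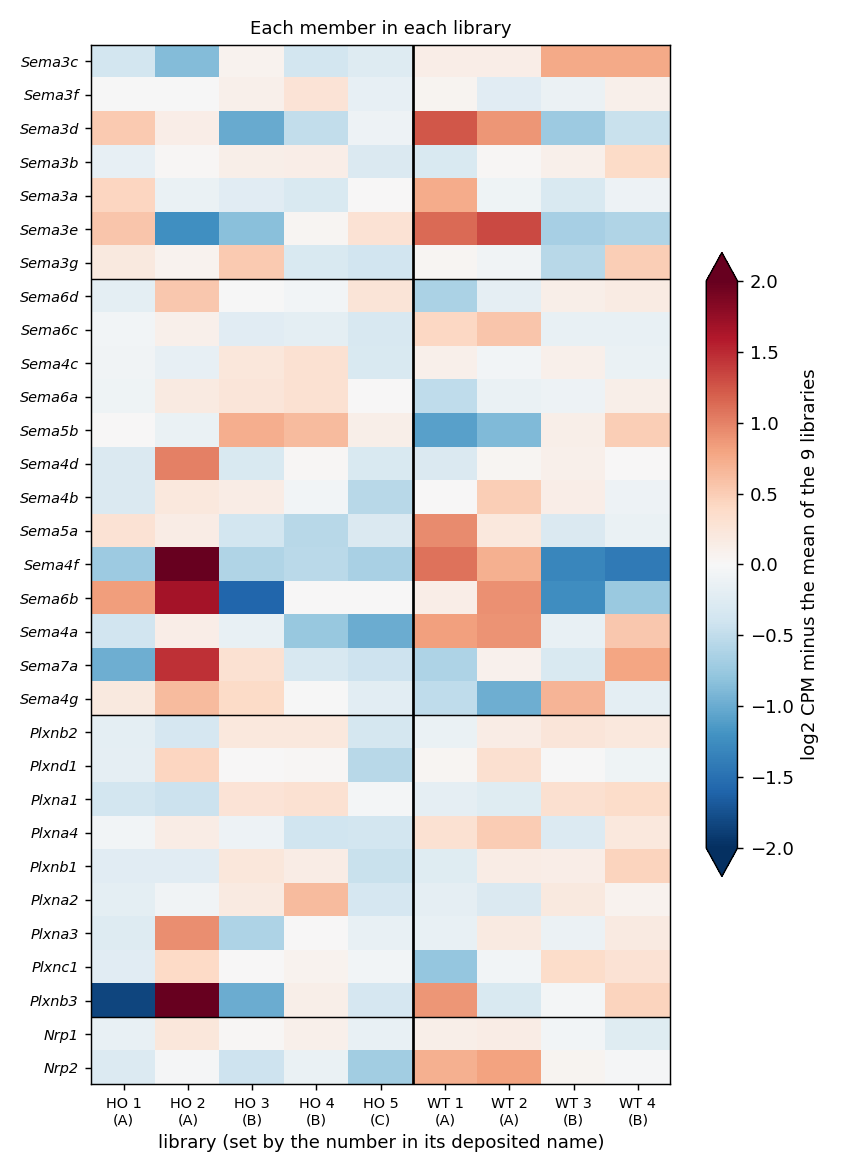
Log2 CPM of each gene minus its mean over the 9 libraries (colour, capped at 2 in either direction), with HO libraries left of WT libraries and the set below each. HO 2 is the darkest red column for Sema4f, Sema6b, Sema7a and Plxnb3, while Sema3d, Sema5b and Plxna1 follow the set in both genotypes.

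Genes of the wider pathway were counted at an unadjusted p under 0.05, which 5.27% of all genes tested reached (2.32% higher and 2.94% lower in HO). Of 38 semaphorin partners and effectors, among them collapsin response mediators and MICAL enzymes, all were tested, 1 was higher and 0 were lower, with a median log2 fold change of -0.002. That gene, Rasa1, an inhibitor of Ras, averaged 197 ± 15.5 CPM in HO and 167 ± 13.3 CPM in WT (0.24, SE 0.09, edgeR adjusted p = 0.896). Of 15 other receptors and co-receptors of semaphorins, 14 were tested and 0 passed in either direction (median -0.02). Of 8 VEGF ligands and receptors that share the neuropilins, 7 were tested and 0 passed in either direction (median 0.18). Of 5 proprotein convertases, the enzymes that cleave class 3 semaphorins, 0 were higher and 1 was lower (median -0.04). This was Pcsk6, at 7.42 ± 0.836 CPM in HO and 19.3 ± 4.09 CPM in WT (-1.38, SE 0.17, edgeR adjusted p = 0.112), with no overlap between groups. Of 17 outflow tract regulators, 16 were tested, 3 were higher and 2 lower. Besides Nkx2-5, Fgf10 had a log2 fold change of 1.01 (SE 0.26), Tbx1 of -0.98 (SE 0.40), Tbx20 of 0.52 (SE 0.22) and Isl1 of 0.84 (SE 0.36). Each had an edgeR adjusted p of 0.896. In set A, Tbx1 had 3.83 and 1.64 CPM in HO and 7.65 and 7.08 in WT, and Tbx20 664 and 723 against 339 and 328. In set B, Tbx1 had 3.06 and 2.85 CPM in HO and 2.88 and 2.93 in WT, and Tbx20 658 and 578 against 597 and 659. Isl1 was at 142 CPM in HO 2, against 42.9 to 59.7 CPM in the other HO libraries and 28.8 to 42.9 CPM in WT. The Fgf10 groups did not overlap, at 9.59 to 14.6 CPM in HO and 3.49 to 9.11 CPM in WT. The median of the 16 was 0.12.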

How the data were processed

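RNA-seq of 9 mouse outflow tract libraries was analysed from the read counts per gene symbol that the authors deposited, 1 file per library. The submitters' processing notes list HTSeq 0.6.0, STAR 2.5.0c, DESeq2, Picard and the mm10 build; annotation and strand setting: not given in the sources used here. Rows naming no gene (20.6% to 23.5% of reads) were left out. The members and gene lists were chosen with earlier results of these data known.

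Genotype effects were fitted in R 4.3.3 by the quasi-likelihood method of edgeR 4.0.16 (robust, TMM factors, filterByExpr minimum count 10, two-sided, Benjamini-Hochberg adjusted over 16522 genes). CPM values use TMM-scaled library sizes. All 31 members were also tested by exact permutation of their mean log2 CPM (prior count 2), without adjustment. Exon lengths and coordinates are from GENCODE M21 (GRCm38), promoter bases from RefSeq. Alternatives were DESeq2 1.42.0, limma 3.58.1, other scaling and filtering, set (from the number in the library name) or replicate number as a term, subsets by set, and each library left out. The scripts were tested on simulated counts. Counting error is small for abundant members but not for those with few reads.

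Deviations of libraries with the same replicate number correlated at 0.242, 0.137, 0.227 and 0.176 across genes, all above 0.1. The labels do not say that these libraries are pairs. The reported genotype fit did not pair them, and the replicate block was an alternative. Libraries of the same set with different replicate numbers correlated as strongly, at 0.150 to 0.236, and HO 5 with WT 3 and WT 4 at 0.177 and 0.197, so the correlation is not particular to the replicate number. Replicates 1 and 2 are all in set A and 3 and 4 in set B, so the block also removes differences between sets, and HO 5, unpaired, adds nothing to the blocked estimate. Different libraries were not duplicates: per-gene chi-square between pairs was at least 16.1.

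Every library's value is given for Sema3c, Plxna2, Plxnd1, Nrp1 and Nrp2, for members with an unadjusted p under 0.05 or groups without overlap, for the member highest per length in each role, and for those with 1 library over 2 times every other. From the pathway lists, up to 4 genes at an unadjusted p under 0.05 are named, smallest p first, and Nkx2-5.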

Additional observations from a re-analysis of the deposited data

Results flagged for a closer look

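Within groups, 5 values of the 31 genes stood far from the others in their group; 62 groups were examined and chance alone marks about 1 in 20. 4 of the 5 were in HO 2, the library with high neuron and Schwann cell markers. Sema4f was at 28.9 CPM in HO 2 and 1.55 to 1.78 CPM in the other HO libraries. Sema4d was at 23.9 CPM in HO 2 and 9.59 to 12.2 CPM in the others, and its log2 fold change against WT was 0.15 with HO 2 and -0.18 without it. Plxna3 was at 25.2 CPM in HO 2 and 8.60 to 13.3 CPM in the others, with 0.05 and -0.27. Plxnb3 was at 3.11 CPM in HO 2 and 0.161 to 0.784 CPM in the others. The part of neural tissue in these values was not tested. The remaining one was Sema3a in WT 1, at 81.0 CPM, against 39.0 to 45.4 CPM in the other WT libraries.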

How the results depend on the processing

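No member passed the adjusted threshold in any alternative. Sema3d was at -0.45 with the replicate block, at an unadjusted p under 0.05, but at 0.10 in set B with HO 5, where it did not pass. Nrp1 was at 0.20 in set B, at an unadjusted p under 0.05, but at -0.07 in set A, where it did not pass. Of the 31 members, 12 kept the sign of their fold change in all 19 alternatives (among them Sema3c, Nrp2 and Sema4a) and 19 had the opposite sign in at least 1. The count of genes called for HO against WT, 0 by edgeR (870 at an unadjusted p under 0.05), was 40 with DESeq2, 6 among the libraries of set B and 4 with limma-voom, added after the data were seen; leaving out 1 library gave 0 to 1, the 1 (Gm3375) without WT 3. None of these calls was a member. The 4 with limma-voom, all lower in HO, were Clu, Gja3, Krt8 and Pcsk6. The count of members at an unadjusted p under 0.05, 3 in the report, was 6 with the replicate block, 7 with the set as a term and 6 with set C counted as set B, and 3 to 6 when 1 library was left out (5 without HO 2, 5 without WT 3 and 6 without WT 4). It was 2, without Sema4a, in set B with HO 5, also added after the data were seen. Sema3c and Nrp2 were among them in each. The 2 genes whose genotype difference differed between sets (Hbb-bs and Hbb-bt, both globins) became 8 with HO 5 counted in set B and 747 with no filter on low counts; the cause was not tested. For Nrp2, set B alone gave -0.29, against -0.72 over all libraries. For Sema3e, set B alone gave 0.30 and, with HO 5 added, 0.55. Levels per kb of longest transcript were at or above those per kb of union exons, with the largest gap for Nrp1. Members under 2 CPM in both groups (Plxnb3, Sema3g, Sema4g and Sema7a) had as few as 8 reads in a library. The largest standard errors were those of Sema4f, Plxnb3, Sema6b, Sema7a and Sema3e.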

Other observations

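Markers of further tissues were summed in each library. Of the 9 epicardial markers, 4 were lower in HO at an unadjusted p under 0.05, against 2.94% of all genes tested. The 8 foregut and lung epithelial markers, of which 1 to 4 were at 0 in a library, summed to 46.2 to 69.9 CPM in HO and 72.4 to 88.6 CPM in WT, with no overlap. Most of these sums came from Krt8 (14.9 CPM in HO and 29.7 CPM in WT) and Krt18 (36.5 CPM in HO and 48.6 CPM in WT); of the 5 tested, 3 were above 0 and 2 below, with a median log2 fold change of 0.27. The 9 neural crest and mesenchyme markers summed to 1124 to 1352 CPM in HO and 566 to 1266 CPM in WT. Macrophage markers (7 genes) summed to 83.2 to 202 CPM in HO and 57.1 to 288 CPM in WT, and erythroid markers (9 genes) to 1879 to 5541 CPM in HO and 1755 to 10307 CPM in WT.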
